A study of Mus musculus with 94 samples.

Results

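Macrophage segments from mouse kidneys collected 14 days after ischemia-reperfusion injury (IRI) were compared between entospletinib- and vehicle-treated animals. They were taken by their labels, as segments captured on IBA1 staining in the day 14 groups, and make up 16 of the 94 segments in the series. Each treatment group had 8 of them, 4 from the cortex and 4 from the medulla. They came from 4 kidney sections, 2 per group (sections 1 and 2 by the prefix of the label).

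All mice were male C57BL/6 animals, and both day 14 groups underwent the same procedure of unilateral renal IRI. Treatment with entospletinib or vehicle (DMSO) began before the injury. The methods state that injections went on at intervals until day 14, while the labels describe the pretreatment alone and place it at another time than the methods do. The series design gives 2 mice per condition and time point, and the labels do not say in words that a section prefix stands for 1 mouse. Uninjured kidneys, vehicle and entospletinib groups from days 1 and 7, and PanCK/CD10-stained tubule segments from the same sections provided the values set beside the day 14 macrophage data.

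Spleen tyrosine kinase (SYK) is a cytoplasmic kinase that relays signals from Fc receptors and C-type lectin receptors in myeloid cells, and entospletinib is a selective inhibitor of it. IBA1 is a cytoplasmic protein of macrophages that is widely used to stain them. After ischemic injury the kidney takes up monocytes from the blood, which become macrophages beside the resident ones, and macrophages take part both in inflammation and in the repair of tubules.

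Digital spatial profiling with the GeoMx Mouse Whole Transcriptome Atlas hybridizes barcoded probes to a tissue section, releases the barcodes from a chosen area with UV light and counts them by sequencing. The files list 20175 probes by identifier, without gene names, so the members of each result are given as probes and as probe lists, and the IBA1 label could not be checked against macrophage marker genes. All 20175 probes had 20 or more counts over the 16 segments, and the lowest total of a probe was 23. In bulk segments such as these, fewer cells of a type and less RNA per cell cannot be told apart.

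The entospletinib segments held fewer counts than the vehicle segments. Totals were 378678, 577512 and 947255 counts (lowest, median and highest) in the 8 vehicle segments and 58579, 160578 and 220585 in the 8 entospletinib segments, with no overlap. The median count of a probe was 7 to 25 in a vehicle segment and 2 to 6 in an entospletinib segment. Sequencing saturation was alike in both groups, at 74.5% to 79.3% and 74.8% to 78.2%. When each segment was thinned at random to 58579 counts, 13330 to 15728 probes were detected with vehicle and 14726 to 16239 with entospletinib, so the ranges overlapped. Of the 16 segments, 3 had fewer than 100000 counts, all from the entospletinib group.

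Segments of a section were taken to share an animal. Their counts were therefore added up, which left 2 sums as the replicates of each treatment (n = 2). The vehicle sums held 2773456 and 2024256 counts, against 538072 and 591370 in the entospletinib sums. The medulla gave 41.6% and 59.7% of the counts in the vehicle sections and 69.2% and 38.6% in the entospletinib sections, and the regions are therefore also given apart. A probe was said to rise or fall where edgeR's quasi-likelihood test gave a Benjamini-Hochberg adjusted p under 0.05 and the absolute log2 fold change was above 1.

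Entospletinib changed a small share of the probes, more of them upward than downward. With entospletinib, 471 probes rose (2.33% of 20175) and 299 fell (1.48%). The median log2 fold change was 1.42 among those that rose, with values up to 5.32, and -1.29 among those that fell, with values down to -3.91. Over all probes the median was 0.07. CPM (counts scaled to a segment total of 1000000) of the 8 entospletinib segments lay above those of all 8 vehicle segments for 211 probes (1.05%). They lay below them for 186 probes (0.922%). Of the 211 probes 151 were among the 471, and of the 186 probes 105 were among the 299. The calls used sums of these same segments, so the 151 and 105 are not separate support.

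With the 4 day 14 sums thinned to the lowest of their totals and fitted alone, 481 probes rose and 244 fell, and without the 3 segments under 100000 counts 425 rose and 252 fell. The counts rested more on single sections. Without vehicle section 2, 263 probes rose and 137 fell, and without entospletinib section 1, 359 rose and 118 fell. Among the 471 and 299 probes, 176 and 79 passed in each of the 4 fits that left out a section.

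Identifiers are given for 4 probes, 2 in each direction, chosen by the smallest adjusted p among those with the same sign in cortex and medulla. RTS0066546 had 125 and 252 CPM in the cortical vehicle segments of section 1 and 137 and 143 CPM in those of section 2, against 892, 1339.8, 939 and 846 CPM in the cortical entospletinib segments. In the medulla it had 50.5, 22.4, 52.6 and 30.3 CPM with vehicle and 599.9, 639, 409.7 and 242 CPM with entospletinib. Within a region every entospletinib segment was above every vehicle segment, and within a treatment every cortical segment was above every medullary one. In the section sums, RTS0066546 had 99.7 ± 21.8 CPM with vehicle and 706 ± 69.3 CPM with entospletinib (SD, n = 2, upper quartile scaled), a log2 fold change of 2.82 (SE 0.33, edgeR quasi-likelihood p of 1.23e-07 after Benjamini-Hochberg adjustment). The macrophage sums of uninjured kidneys had 877 ± 82.7 CPM (SD, n = 2).

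RTS0079196 had 51.7, 76.0, 82.2 and 89.8 CPM in the cortical vehicle segments and 263, 204, 290.1 and 379.9 CPM in the cortical entospletinib segments. In the medulla it had 34.8, 17.2, 54.2 and 17.8 CPM with vehicle and 363, 313, 495 and 224 CPM with entospletinib. No entospletinib segment reached down to the vehicle range in either region. The section sums gave 52.1 ± 9.40 CPM with vehicle and 307 ± 14.2 CPM with entospletinib (SD, n = 2), a log2 fold change of 2.56 (SE 0.30, edgeR adjusted p = 1.52e-07), beside 259.9 ± 147 CPM in uninjured kidneys.

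RTS0063488 was low in every entospletinib segment. It had 143, 31.3, 50.3 and 92.4 CPM in the cortical vehicle segments and 0, 25.5, 10.5 and 11.5 CPM in the cortical entospletinib segments, the latter from 0 to 2 counts each. The count of 0 allows a level of up to 34.3 CPM (3 counts, counting error only). In the medulla it had 249, 389, 294 and 397 CPM with vehicle and 52.7, 36.3, 17.1 and 59.0 CPM with entospletinib. Measured values did not overlap within a region. In the cortex this rests on few counts, since the level that a count of 0 allows is above the lowest vehicle value. Across regions, the cortical vehicle range overlapped the medullary entospletinib range. The section sums gave 212 ± 40.0 CPM with vehicle and 29.0 ± 5.29 CPM with entospletinib (SD, n = 2), a log2 fold change of -2.87 (SE 0.28, edgeR adjusted p = 1.01e-09), beside 30.9 ± 11.5 CPM in uninjured kidneys.

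RTS0081452 had 271, 83.4, 48.0 and 114 CPM in the cortical vehicle segments and 22.9, 38.3, 26.4 and 11.5 CPM in the cortical entospletinib segments. In the medulla it had 625, 934, 582 and 680.0 CPM with vehicle and 119, 99.7, 102 and 236 CPM with entospletinib. Again measured values did not overlap within a region, and both groups had their higher values in the medulla. In the cortex the lack of overlap rests on few counts, 2 to 5 per entospletinib segment. The section sums gave 422 ± 3.30 CPM with vehicle and 85.6 ± 5.24 CPM with entospletinib (SD, n = 2), a log2 fold change of -2.30 (SE 0.26, edgeR adjusted p = 1.15e-07), beside 34.1 ± 6.89 CPM in uninjured kidneys.

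**Figure D1:**
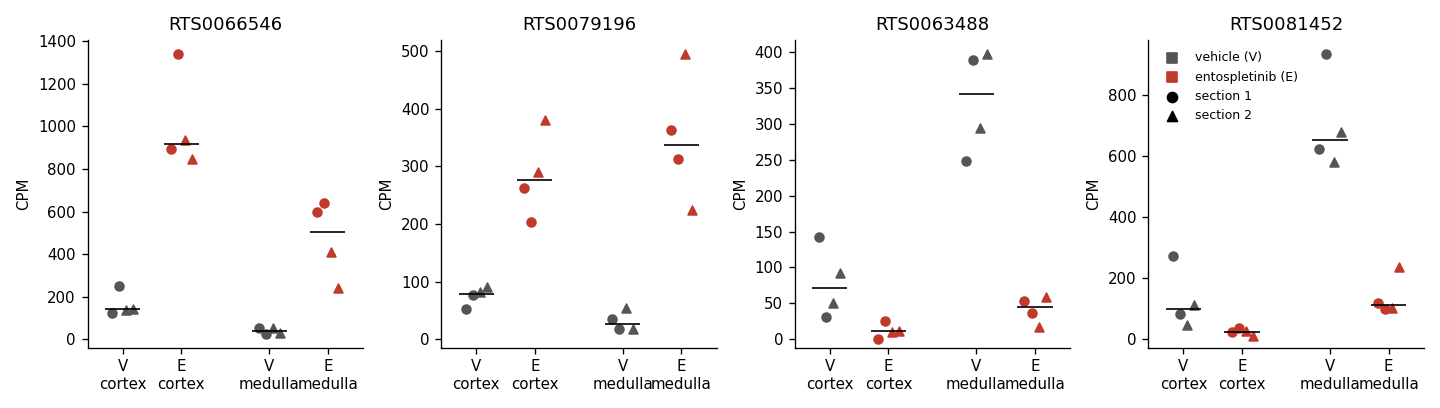
CPM of the 4 named probes (y axis, linear) in each of the 16 day 14 macrophage segments, by treatment and region on the x axis. Points are segments, their shape gives the section, and lines are medians of 4 segments. Within each region the entospletinib (red) and vehicle (grey) segments do not overlap in measured CPM for any of the 4 probes. In the cortex this rests on few counts per entospletinib segment, 0 to 2 for RTS0063488 and 2 to 5 for RTS0081452.

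By their medians, the called probes had levels in uninjured kidneys that lay on the side of the entospletinib group. The 471 probes that rose had a median of 35.9 CPM in the vehicle sums, 112 CPM in the entospletinib sums and 117 CPM in the macrophage sums of uninjured kidneys. The 299 probes that fell had medians of 111, 44.4 and 34.1 CPM in the same order. Over all 20175 probes the medians were 23.9, 26.3 and 27.6 CPM. The level in uninjured kidneys was nearer to that with entospletinib than to that with vehicle for 448 of the 471 and 288 of the 299 probes, beside 58.2% of all probes. The macrophage segments of uninjured kidneys were also shallow, with 16693 to 146173 counts, and the part of depth in this order was not tested.

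Calls were concentrated in probes of high level. Of the 471 probes that rose, 222 were among the 2018 probes with the highest mean CPM over the 16 segments (above 82.7 CPM), and of the 299 that fell, 144 were there. Of these 2018 probes 18.1% passed, against 3.82% of all probes. Among the 10088 probes of lowest mean CPM, 26 rose and 11 fell. The median log2 fold change was -0.17 over the 2018 probes and 0.19 over probes with a mean between 14.4 and 17.4 CPM. The median probe of an entospletinib segment had 2 to 6 counts, and the part of depth in the few calls at low level was not tested.

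Cortex and medulla were then tested apart, to ask whether the change was regional. In the cortex, 400 probes rose (1.98%) and 303 fell (1.5%). In the medulla, 325 rose (1.61%) and 215 fell (1.07%). Of the probes that rose, 178 did so in both regions, which is 44.5% of the cortical and 54.8% of the medullary list. Of the probes that fell, 109 did so in both, or 36.0% and 50.7%. No probe rose in a region and fell in the other. Of the 471 probes that rose in the pooled sums, 463 had positive log2 fold changes in both regions. Of the 299 that fell, 297 had negative ones in both. Over all probes, 6521 had positive and 5849 had negative values in both regions. The pooled sums hold the counts of both regions, so probes called there tend to share a sign by selection. The 463 and 297 therefore cannot decide whether the change was regional.

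The vehicle and entospletinib segments of the cortex, 4 against 4, did not overlap for 2087 probes, of which 1013 were higher (5.02%) and 1074 lower (5.32%) with entospletinib. In the medulla this held for 1906 probes, 1003 higher (4.97%) and 903 lower (4.48%). Among the 471 probes that rose, the cortical segments did not overlap for 350 and the medullary segments for 327. Among the 299 that fell, the numbers were 226 and 217. Both lists were called on sums of these same segments, so such numbers follow in part from that selection.

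The counts of both regions depended on single sections. Those of the medulla came to 162 probes up and 120 down without vehicle section 1, 125 and 45 without entospletinib section 1, 147 and 91 without vehicle section 2, and 454 and 279 without entospletinib section 2. The cortical counts came to 281 and 155 without vehicle section 2 and to 184 and 173 without entospletinib section 2. With TMM scaling the balance in the cortex turned, with 313 probes up and 335 down. DESeq2 on the same sums called 278 up and 147 down in the cortex and 190 up and 80 down in the medulla, which raised the share of higher calls in the medulla from 60.2% to 70.4%.

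**Figure D2:**
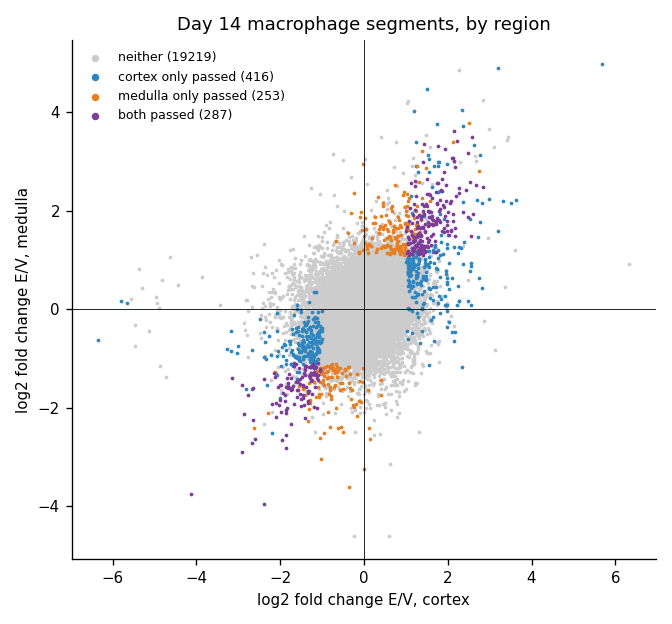
Log2 fold change of entospletinib over vehicle (E/V) in the cortex (x axis) against the medulla (y axis) for 20175 probes in day 14 macrophage segments. Each point is a probe, coloured by where it passed the test; the 287 probes that passed in both regions (purple) all lie in the quadrants of equal sign.

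The difference between the regions was tested directly, in 28 sums of 14 sections by region with the section in the model. The log2 fold change was higher in the medulla for 23 probes (0.114%) and lower for 22 (0.109%) at an adjusted p under 0.05 by edgeR's quasi-likelihood test. The 23 had a cortical median of 0.06 and a medullary median of 2.16 (log2 fold change), and the 22 had medians of 1.98 and -0.46. Selection by this difference in the same sums sets these medians apart, so the gaps overstate it. Among these 45 probes, 14 had risen and 5 had fallen in the pooled comparison. The 4 named probes were not among them, with differences (medulla minus cortex) of 0.81 (SE 0.36) for RTS0066546, 1.37 (SE 0.37) for RTS0079196, 0.03 (SE 0.41) for RTS0063488 and 0.37 (SE 0.51) for RTS0081452. Only 7 probes passed with edgeR's filter on low counts, and 3 without entospletinib section 1, 8 without vehicle section 2 and 12 without vehicle section 1.

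Probes were next grouped by the compartment they lean to. In the 10 sections of the control, day 1 and day 7 groups, none of which is a day 14 section, 362 probes (1.79%) were higher in macrophage than in tubule segments and 48 (0.238%) were higher in tubule segments. The macrophage-leaning probes made up 9.08%, 11.9% and 13.1% of a segment's counts (lowest, median and highest) in the 8 vehicle segments and 3.84%, 5.31% and 8.86% in the 8 entospletinib segments. The tubule-leaning probes made up 0.109%, 0.200% and 0.360% with vehicle and 0.692%, 1.23% and 1.58% with entospletinib. Neither share overlapped between the groups. In the section sums the macrophage-leaning share was 10.4% and 12.7% with vehicle and 4.92% and 6.53% with entospletinib, and the tubule-leaning share was 0.220% and 0.214% against 1.23% and 1.16%. The two-sided exact permutation p of each difference was 0.333, the smallest that 2 against 2 sections allow.

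Within the macrophage-leaning list, 124 of 362 probes fell and 4 rose, where 1.48% of all probes fell and 2.33% rose. The median log2 fold change of the list was -0.84 beside 0.07 over all probes. In the tubule-leaning list 28 of 48 rose and 0 fell, with a median of 2.09. The sign of both medians was the same in each region. The macrophage-leaning median was -0.95 in the cortex (128 fell, 1 rose) and -0.77 in the medulla (84 fell, 4 rose). The tubule-leaning median was 1.64 (28 rose) and 1.86 (13 rose) in the same order. Over all probes 1.5% fell and 1.98% rose in the cortex, and 1.07% fell and 1.61% rose in the medulla. All 48 tubule-leaning probes were detected in every vehicle segment and 45 to 48 in the entospletinib segments. All 362 macrophage-leaning probes were detected in every vehicle segment and 342 to 362 in the entospletinib segments.

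The shift of both lists was not particular to the macrophage segments. In the tubule segments of day 14 the median macrophage-leaning share was 4.35% with vehicle and 0.943% with entospletinib, and the tubule-leaning share 0.99% and 2.84%. There, 218 of the 362 macrophage-leaning probes fell (median log2 fold change -1.17) and 27 of the 48 tubule-leaning probes rose (median 1.95). Over all probes 3.18% fell and 2.97% rose in tubule segments.

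The share of tubule-leaning probes moved with the other results, and its part in them was not tested. The tubule-leaning list held 5.94% of the probes that rose, beside 0.238% of all probes. The macrophage-leaning list held 41.5% of the probes that fell, beside 1.79% of all probes. Outside these short lists were 443 of the 471 probes that rose (not tubule-leaning) and 175 of the 299 that fell (not macrophage-leaning). Of these 443 probes, 427 had lower values in macrophage than in tubule segments of the earlier sections (62.5% of all probes did), and of the 175, 154 had higher ones (37.5% of all probes did). In the macrophage segments of uninjured kidneys the macrophage-leaning share was 2.71% to 4.75% and the tubule-leaning share 0.647% to 1.61% (6 segments, which were among those that chose the lists). Without vehicle section 2 and without entospletinib section 1 the macrophage-leaning probes that fell came to 55 and 44, and without the 3 shallowest segments to 108.

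**Figure D3:**
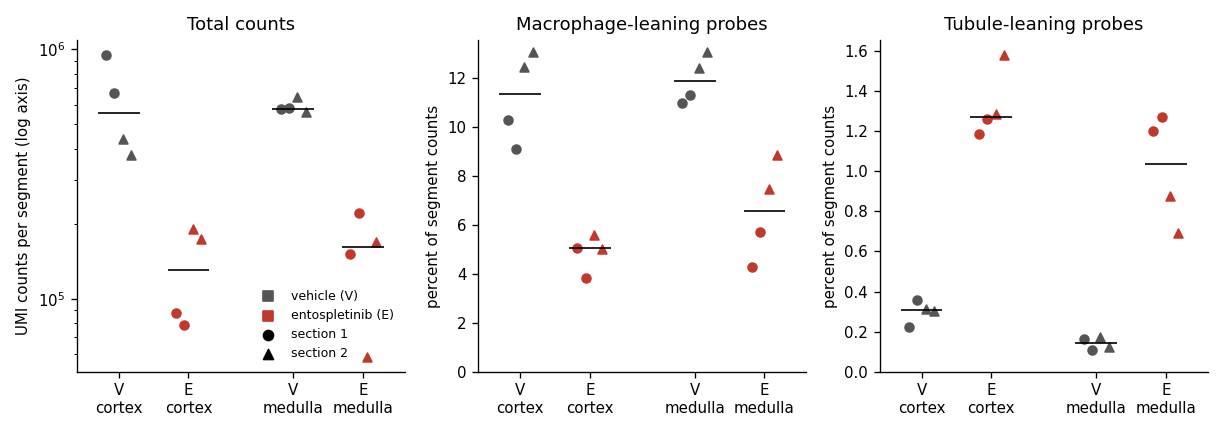
Total UMI counts (left, log axis) and the percent of counts in 362 macrophage-leaning (middle) and 48 tubule-leaning probes (right) in each of the 16 day 14 macrophage segments, by treatment (V, vehicle; E, entospletinib) and region. Points are segments, their shape gives the section, and lines are medians of 4 segments; entospletinib segments are lower in the left and middle panels and higher in the right panel, without overlap.

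The tubule segments of the same sections were used to ask whether the changes were particular to the macrophage segments. There, 599 probes rose (2.97%) and 642 fell (3.18%) with entospletinib on day 14 (8 vehicle and 9 entospletinib segments, summed per section). Of the 471 probes that rose in macrophage segments, 331 also rose in tubule segments, which is 70.3% of the macrophage list and 55.3% of the tubule list. Of the 299 that fell, 202 also fell in tubules, or 67.6% and 31.5%. None of the 471 fell and none of the 299 rose in tubule segments. Both compartments come from the same sections, and the part of the tubule-leaning share in this overlap was not tested.

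The named probes moved the same way in tubule segments. RTS0066546 had 45.5, 358 and 971 CPM (lowest, median and highest) in the 8 vehicle tubule segments and 1011, 1299 and 1794 CPM in the 9 entospletinib tubule segments. RTS0079196 had 38.2, 215 and 309.9 CPM and 403, 669 and 1046 CPM in the same order. Both probes that rose were therefore at higher levels in tubule than in macrophage segments of the entospletinib group by their medians. RTS0063488 had 25.5, 75.7 and 397 CPM with vehicle and 14.3, 17.1 and 38.6 CPM with entospletinib, and RTS0081452 had 24.5, 79.2 and 523 CPM and 12.7, 23.8 and 36.5 CPM.

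The difference between the compartments was tested in 28 sums with the section in the model. The log2 fold change was higher in macrophage segments for 263 probes (1.3%) and lower for 77 (0.382%), by edgeR's adjusted p under 0.05. The 263 had medians of -0.34 in macrophage and -1.47 in tubule segments (log2 fold change), and 191 of them had fallen in tubules. They included 83 of the 362 macrophage-leaning probes. The 77 had medians of -0.55 in macrophage and 0.67 in tubule segments. Both sets were selected by this difference in the same sums, so the gaps between their medians follow in part from that. Of the 770 probes called in macrophage segments, 68 differed from tubules, and these were 12 of the 471 that rose and 56 of the 299 that fell. RTS0081452 was among them, with a log2 fold change of -2.30 in macrophage and -3.13 in tubule segments (difference 0.84, SE 0.21, adjusted p = 0.0196 by edgeR's quasi-likelihood test).

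The split of these calls depended on the scaling. With TMM in place of the upper quartile, 385 probes were higher and 42 lower in macrophage segments, and the median difference over all probes moved from -0.14 to -0.00 on the log2 scale. The number that differed was 121 without vehicle section 2 and 66 without entospletinib section 2.

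**Figure D4:**
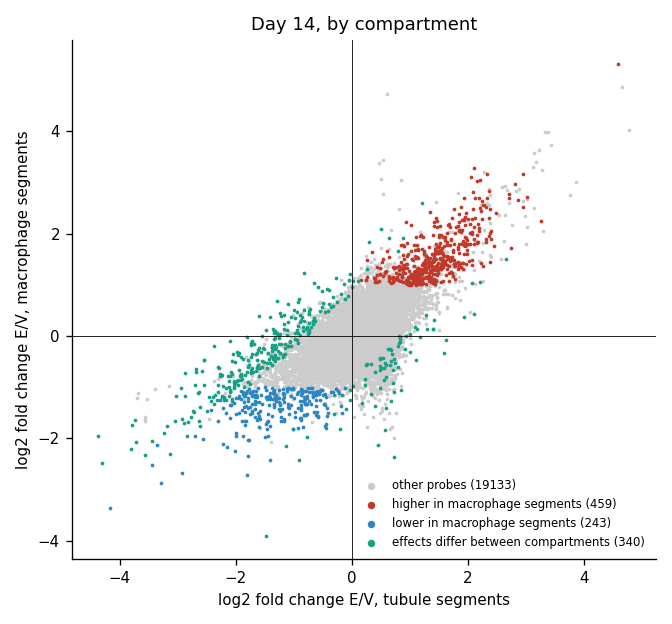
Log2 fold change of entospletinib over vehicle (E/V) on day 14 in tubule segments (x axis) against macrophage segments (y axis) for 20175 probes. Red and blue points rose or fell in macrophage segments, and the 340 green points had effects that differed between the compartments. Of the probes that rose in macrophage segments, green points included, 468 of 471 have positive values in tubules, beside 72.2% of all probes. Of those that fell, 296 of 299 have negative values, beside 27.8% of all probes.

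Injury was then considered, to see how the probes that change after IRI stood on day 14. In macrophage segments, vehicle on day 7 against uninjured kidneys gave 291 probes that were higher (1.44%) and 413 that were lower (2.05%), from sections that the day 14 comparison does not use. Of the 291 injury-higher probes, 132 fell (45.4%) and 0 rose with entospletinib on day 14, with a median log2 fold change of -0.99. Of the 413 injury-lower probes, 255 rose (61.7%) and 0 fell, with a median of 1.22. Over all probes 1.48% fell and 2.33% rose, and the median was 0.07. In the cortex 141 of the 291 fell and 232 of the 413 rose, and in the medulla 86 fell (1 rose) and 170 rose. Over all probes 1.5% fell and 1.98% rose in the cortex, and 1.07% fell and 1.61% rose in the medulla.

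The injury-higher probes made up 6.83%, 8.77% and 9.52% of the counts (lowest, median and highest) in the vehicle segments and 2.62%, 3.29% and 6.19% in the entospletinib segments. The injury-lower probes made up 2.58%, 3.51% and 4.81% with vehicle and 5.57%, 9.76% and 13.1% with entospletinib. Neither overlapped between the groups, and the exact permutation p over sections was again 0.333. Uninjured macrophage segments had 1.74% to 2.78% and 8.87% to 15.0%, but these segments were used to choose both lists, so their shares were fixed by that choice. Among the injury-higher probes, 132 of 291 were also macrophage-leaning, and among the injury-lower probes 18 of 413 were tubule-leaning.

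Many of the probes called on day 7 were called on day 14 too, in the same direction. On day 7, in other sections, 509 probes were higher (2.52%) and 459 lower (2.28%) with entospletinib in macrophage segments. On day 14, 320 of the 509 rose and 0 fell (median log2 fold change 1.26), while 173 of the 459 fell and 0 rose (median -0.86). Over all probes 2.33% rose and 1.48% fell on day 14. Seen from day 14, 67.9% of the 471 and 57.9% of the 299 were in the day 7 lists. The named probes had day 7 log2 fold changes of 2.90 (SE 0.33) for RTS0066546, 2.18 (SE 0.31) for RTS0079196, -1.65 (SE 0.39) for RTS0063488 and -1.50 (SE 0.34) for RTS0081452.

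No probe had a day 14 effect that differed from the day 7 effect at an adjusted p under 0.05 by edgeR, and 604 did at an unadjusted p under 0.05. This does not show that the effects were equal, as RTS0063488 differed by -1.21 (SE 0.52). From day 1, 1 probe differed upward and 1 downward (0.00991%, with 1181 at an unadjusted p under 0.05). On day 1 itself edgeR called no probe in macrophage segments (932 at an unadjusted p under 0.05). The median day 1 log2 fold change was 0.45 among the 471 probes and -0.29 among the 299, beside 0.05 over all probes. If nothing differed, about 1 in 20 of the 20175 probes tested would have an unadjusted p under 0.05. The counts of 604 and 932 lie below that level and 1181 lies above it. The 604 and 932 are therefore not in themselves a sign of differences.

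**Figure D5:**
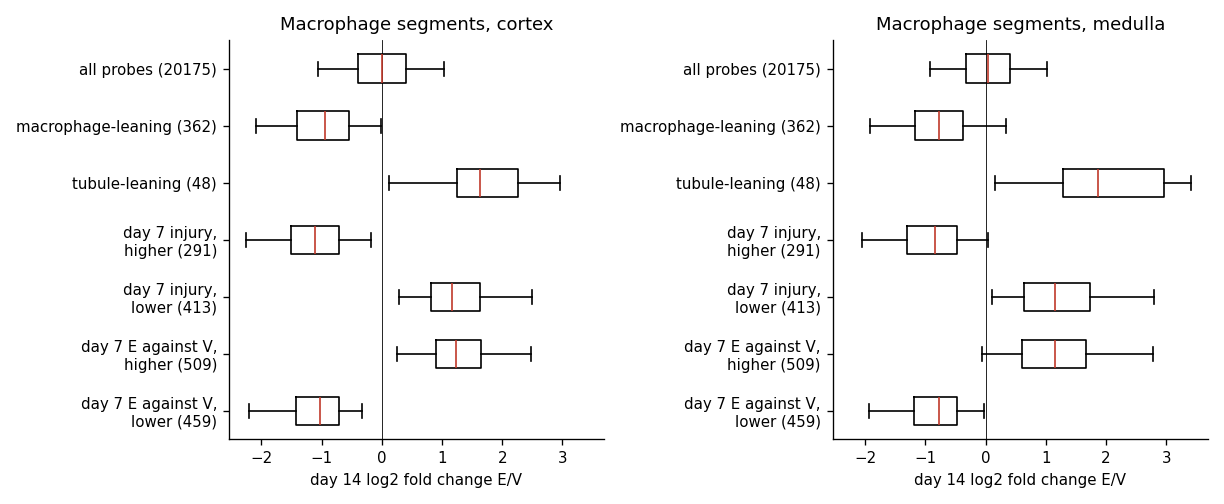
Day 14 log2 fold change of entospletinib over vehicle (E/V, x axis) in macrophage segments of the cortex (left) and the medulla (right) for all probes and for lists drawn from earlier sections (y axis, number of probes in brackets). Boxes span the quartiles with the median in red and whiskers the 5th to 95th percentiles; macrophage-leaning, injury-higher and day 7 lower probes have medians below zero and the other lists above it in both regions.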

How the data were processed

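Counts were taken from the 94 deposited GeoMx files, 1 per segment. The authors deposited raw UMI counts per probe, made with the GeoMx NGS Pipeline (3.1.1.5 per the file headers), with no normalization, background subtraction or segment filter. The labels name R 4.3.1 for the submitters' processing. Probe identifiers were not paired with genes in the sources used here, and negative probes were not marked.

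Groups, regions and sections were read from the labels. Probes with 20 or more counts over the 16 segments were kept. Counts were summed per section (14 macrophage sums, also per region), upper quartile scaled and compared by edgeR 4.0.16 (robust quasi-likelihood fit, R 4.3.3), with Benjamini-Hochberg adjustment over all probes. All groups shared an estimate of the spread. Standard errors were obtained from the log2 fold change and the F statistic. The study took segments as replicates and filtered genes and segments, so its design differs. No fold threshold was set for differences between effects. P-values rest on the spread between the 2 sections of a group, pooled over the groups of the fit and drawn toward a value shared across probes. In the pooled comparison the median prior degrees of freedom, which come from other probes, were 42.9, beside 7 residual ones.

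Segment CPM was scaled to 1000000 counts. Intervals and floors cover counting error only. Alternatives were TMM, DESeq2 1.42.0, other filters, the replicate block, the day 14 sums alone, thinned counts, segments as replicates (DESeq2, limma-voom 3.58.1) and leaving out each section. With a section left out, the spread of its group was taken from the remaining groups. The fits were tested on simulated data, with known changes set in probes drawn at random. The pooled test found 20.9% of 2-fold and 72.7% of 4-fold changes, and called 6 unchanged probes. A 2-fold change lies at the fold threshold of the pooled test, which lowers the share found. The tests of differences had no fold threshold, so their shares are not directly comparable. For differences between effects, the medulla minus cortex test found 0% and 15.2%, and the macrophage minus tubule test 5.97% and 54.5%. Small numbers of probes that differed therefore do not show that effects were equal. Exact permutation tests used SciPy 1.17.1. The segments, lists and rule for named probes (the 2 higher and 2 lower with the smallest adjusted p, called and of equal sign in both regions) were chosen with earlier results of these data known.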

Additional observations from a re-analysis of the deposited data

Results flagged for a closer look

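Among 36 groups of 4 segments examined for a sample far from the others, 2 held one, and chance alone gives about 1 in 20. In the cortical vehicle segments RTS0066546 had 252 CPM in 1 segment of section 1, beside 143 CPM in the next. In the medullary entospletinib segments RTS0081452 had 236 CPM in 1 segment of section 2, beside 119 CPM in the next. Neither value reached the range of the other treatment in its region.

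The effect of entospletinib differed between medulla and cortex for 45 probes, between macrophage and tubule segments for 340 probes, and between days 14 and 1 for 2 probes, each by edgeR's test of the difference itself. The first count fell to 7 with a stricter filter on low counts.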

How the results depend on the processing

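The 770 calls of the pooled comparison stayed between 538 (DESeq2) and 928 (segments as replicates, DESeq2) under the alternatives that kept all sections, 577 and 677 among them with every segment thinned and without the 3 shallowest segments, both chosen after seeing the data. All probes passed the main filter, so no filter gave the same counts. The 4 named probes kept their direction in all 15 alternatives. They were chosen by the smallest adjusted p of this same comparison, so their stability cannot be read as that of the other calls. Of the 770 calls, 503 remained with DESeq2 on the sums and 426 with every segment thinned (6415 probes tested). Counts moved by over 1.5 times to 425 (DESeq2) and 467 (thinned sums) in the cortex, to 270 (DESeq2) in the medulla, and with filterByExpr (minimum count 10) to 7 for medulla minus cortex and 1 for day 14 minus day 1. Leaving out a section gave 400 to 731 calls pooled, 357 to 651 in the cortex, 170 to 733 in the medulla, 3 to 48 for medulla minus cortex, 66 to 245 for macrophage minus tubule segments, 0 to 1 for day 14 minus day 7 and 0 to 22 for day 14 minus day 1. Fewer samples entered these fits, and the cause of the other moves was not tested.

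With the section number as a replicate block the counts were 872 pooled, 886 in the cortex and 676 in the medulla, and 768 of the 770 remained. Same-numbered sections deviated together with a correlation of 0.239 over probes, and the labels do not say what a number stands for. Without the fold threshold the macrophage-leaning median share was 23.9% with vehicle and 13.3% with entospletinib, and the tubule-leaning one 12.2% and 24.3%, in the same order as with it. Entospletinib depth (58579 to 220585 counts per segment) limits what can be seen in low probes.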
